A study of Solanum tuberosum with 36 samples.

Results

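The lipid transfer protein gene PGSC0003DMG400005731 and the omega-6 desaturase gene PGSC0003DMG400002943 were followed in the leaves of 4 potato cultivars under drought. They are 2 of the 25289 genes listed in each table of the series, and both were found in all 18 tables. Both were selected on these libraries by the study itself, as genes whose response to drought differed between a drought-tolerant and a drought-sensitive cultivar. In that pair of cultivars, the difference on day 0 had to be not significant in the study's own test. The lipid transfer protein gene was chosen by its values in Tajfun and Owacja, and the desaturase gene by its values in Gwiazda and Oberon. The levels in the pair that chose a gene are therefore a description and support nothing. The other pair was not used to choose it, so each gene is described there as well.

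Nonspecific lipid transfer proteins are small secreted proteins of plants that hold a lipid in a hydrophobic cavity and carry phospholipids and fatty acids between membranes in the test tube. They are known in leaves as proteins of the epidermis and the cell wall, where cutin and wax are laid down. Fatty acid desaturases put double bonds into the acyl chains of membrane lipids and so set how fluid a membrane is. In Arabidopsis the omega-6 desaturase of the endoplasmic reticulum turns oleic into linoleic acid, and the omega-3 desaturases turn linoleic into linolenic acid.

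Leaves were taken from Gwiazda and Tajfun, the drought-tolerant cultivars, and from Oberon and Owacja, the drought-sensitive cultivars related to them by ancestry. The days were 0, when plants were still watered and which the labels call control, and 6 and 10 after irrigation was withdrawn. Drought began 3 weeks after tubers had started to form. Each of the 12 groups, 1 for each cultivar and day, has 3 libraries from different plants by the labels, 36 in all. Plants kept watered until days 6 and 10 are not among the samples, so drought and 6 or 10 more days of growth cannot be told apart. Leaf markers could not be checked, because the gene identifiers matched none of the entries of the annotation used here.

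The tables give the mean of each group in normalized reads and no value of a single library. No SD, no p and no repeat without 1 library could be had, and whether a difference exceeds the spread between plants was not tested. Every ratio below is a ratio of the authors' means of 2 groups within 1 table, later over earlier day or drought-tolerant over drought-sensitive cultivar. A gene was counted as apart where the 2 means differed at least 2-fold. The share of all genes that far apart, in each direction for the comparisons with day 0, is given where a comparison is first counted, over genes with a mean of at least 100 reads. In leaf tissue, fewer cells of a type and less RNA per cell cannot be told apart. The column totals ran from 3.42e+07 to 4.47e+07 normalized reads. In Tajfun and Owacja the total on day 0 was 21.4 to 30.6% above that of the later day in the same table, while in tables of Gwiazda and Oberon the totals were at most 1.06-fold apart. The median log2 ratio of all genes ran from -0.03 to 0.06 over the 18 tables. Oberon day 10 weighed as 2 libraries against 3 in the mean over both groups in its 3 tables, although the labels list 3.

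RAB18 (PGSC0003DMG400003531), a dehydrin gene that marks drought in leaves, was higher than on day 0 in all 8 comparisons of a drought day with day 0, from 11.9-fold in Gwiazda on day 10 to 52.7-fold in Owacja on day 6. A high level of this marker was thus measured in the cultivars where the lipid transfer protein gene was near its day 0 level as well as in those where it was not.

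The lipid transfer protein gene has its Arabidopsis counterpart, by the paper, in a gene for a type 2 nonspecific lipid transfer protein. The primers that the study designed to measure it by PCR are shown because they name the transcript beyond its identifier. All letters are in lower case, since no part of them is singled out.
forward primer of the lipid transfer protein gene: tgcactaatggtactttctgaacaa
reverse primer of the lipid transfer protein gene: tgtaaatccaaggccaatga
The forward primer has 25 bases, of which 36% are G or C, and the reverse primer has 20, of which 40% are.

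On day 0 its mean was 767 to 798 normalized reads in Gwiazda over the 3 tables that hold the group, and 619 to 640 in Oberon. It was 1695 to 1971 in Tajfun and 1153 to 1271 in Owacja. Before drought, then, the 2 cultivars of each pair lay within 1.5-fold of each other, with the drought-tolerant one higher in both pairs. In Tajfun and Owacja, the pair that chose the gene, a day 0 difference without significance was a condition of the study's selection. On day 6 the means were 581 to 596 in Gwiazda, 2004 to 2038 in Oberon, 6301 to 6988 in Tajfun and 1209 to 1402 in Owacja. On day 10 they were 721 to 736 in Gwiazda, 1074 to 1113 in Oberon, 5238 to 5936 in Tajfun and 1086 to 1265 in Owacja. Oberon on day 6 and Tajfun on all 3 days thus had means above those of Gwiazda and Owacja on any day.

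**Figure D1:**
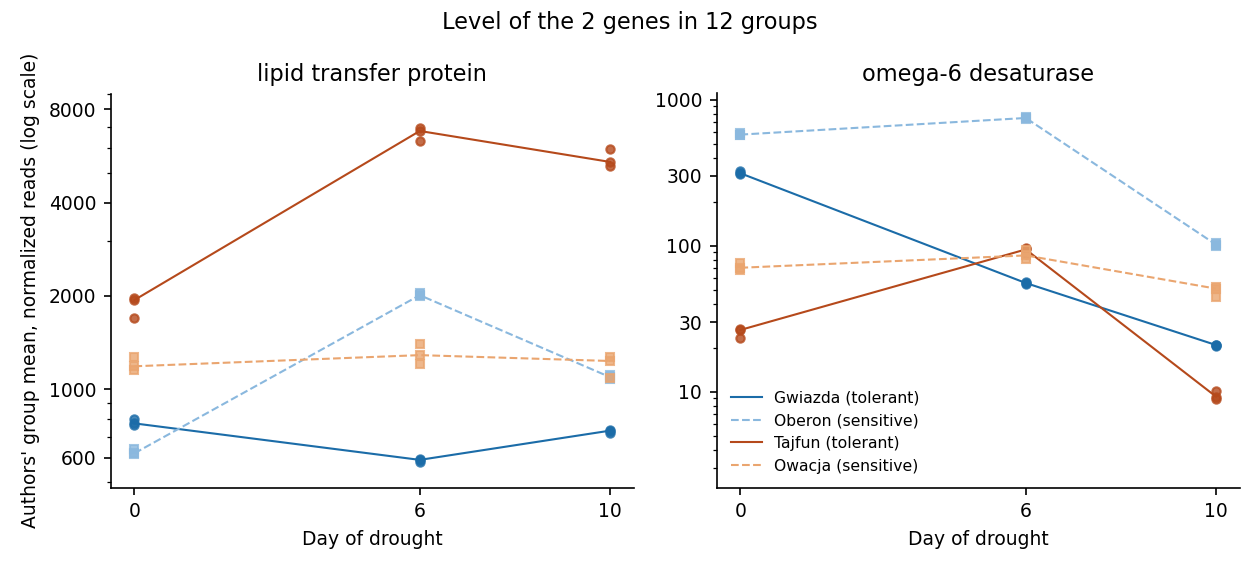
Level of the lipid transfer protein gene and of the omega-6 desaturase gene on days 0, 6 and 10 of drought. Each point is the authors' mean of a group in 1 of its 3 tables, in normalized reads on a log scale, and lines join the medians of the 3. The lipid transfer protein gene is highest in Tajfun on day 6 (6301 to 6988 reads), and the desaturase gene is highest in Oberon on day 6 (738 to 756 reads).

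In the order of the 12 groups Tajfun stood first with day 6, then with day 10, and in place 4 with day 0. Oberon on day 6 was between them in place 3, and Gwiazda on day 6 was last. The 3 Owacja groups followed each other in places 5 to 7, and their ranges over the tables overlapped from each to the next. No other neighbours overlapped. With means divided by their column totals, Oberon on day 10 stood between Owacja on day 10 and Owacja on day 0. These ranges show only the separate normalization of the tables and not the spread between plants: for the 2 genes, the top and bottom mean of a group were 1.02-fold to 1.04-fold apart in Gwiazda and Oberon and 1.10-fold to 1.16-fold apart in Tajfun and Owacja, and the median over all genes had the same ends. Groups of different pairs never shared a table, so their order is given as values side by side.

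In Tajfun, where the gene was chosen, it was 3.20-fold higher on day 6 than on day 0 (6301 against 1971 reads, log2 ratio 1.68) and 2.70-fold higher on day 10 (5238 against 1939 reads, log2 ratio 1.43). Of all genes in Tajfun, 11.2% were 2-fold or more higher and 16.0% lower on day 6, and 16.7% higher and 21.0% lower on day 10. In Owacja it was near its day 0 level on both days, with 1209 against 1271 reads on day 6 and 1086 against 1185 reads on day 10. The log2 ratios there were -0.07 and -0.13, where 11.8% of genes were 2-fold or more higher and 16.9% lower on day 6, and 18.4% higher and 21.5% lower on day 10. Both signs turn when means are divided by their column totals, to log2 ratios of 0.31 and 0.15. That of day 6 also turns with the genes taken as stable, to 0.03. Either way the gene in Owacja stayed well under the 2-fold mark that it passed in Tajfun.

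In the pair that did not choose it, the order of the cultivars was the other way round. In Oberon, the drought-sensitive cultivar, the gene was 3.24-fold higher on day 6 than on day 0, with 2004 against 619 reads and a log2 ratio of 1.69. Of all genes, 9.86% were 2-fold or more higher there and 12.8% lower, and 622 of 13642 genes had a higher ratio. On day 10 it was 1.73-fold higher in Oberon (1074 against 621 reads, log2 ratio 0.79), short of 2-fold, where 16.6% of genes were 2-fold or more higher and 16.7% lower. In Gwiazda, the drought-tolerant cultivar, it was 1.30-fold lower on day 6 (596 against 775 reads, log2 ratio -0.38) and 1.09-fold lower on day 10 (736 against 798 reads, log2 ratio -0.12). There 9.15% of genes were 2-fold or more higher and 13.8% lower on day 6, and 16.3% higher and 19.8% lower on day 10. The gene was therefore at least 2-fold higher than on day 0 in 3 of 8 comparisons, from 1 drought-tolerant and 1 drought-sensitive cultivar, and in none at least 2-fold lower. Of these 3 comparisons, only that of Oberon on day 6 lies outside the pair that chose the gene.

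**Figure D2:**
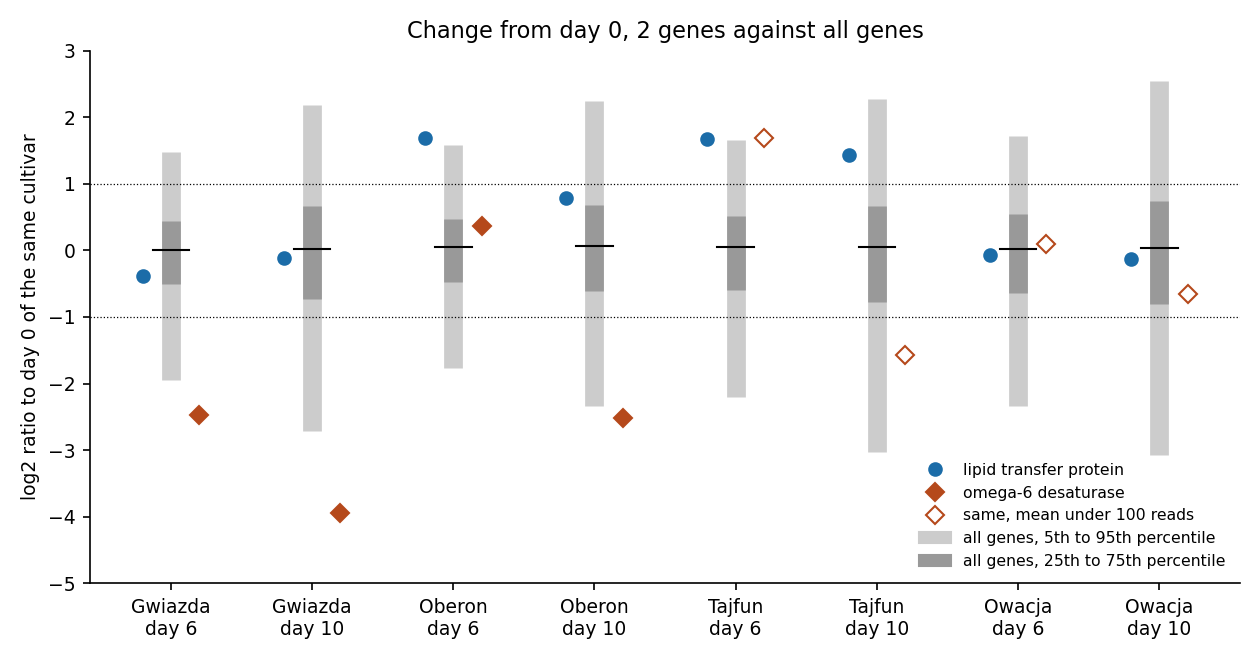
Log2 ratio of a drought day to day 0 of the same cultivar for both genes, beside grey bars for all genes with a mean of at least 100 reads. Dark bars span the 25th to 75th percentile, light bars the 5th to 95th, black lines mark the medians, dotted lines mark 2-fold, and open symbols are means under 100 reads. The lipid transfer protein gene is at 1.69 in Oberon and 1.68 in Tajfun on day 6, and the desaturase gene is at -3.95 in Gwiazda on day 10.

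From day 6 to day 10 the lipid transfer protein gene went back towards its day 0 level in Oberon, where it was 1.86-fold lower on day 10 (1093 against 2038 reads). In Tajfun it was 1.15-fold lower (5936 against 6812 reads), and in Gwiazda 1.22-fold higher (721 against 591 reads). In Owacja the 2 days gave 1265 and 1287 reads. None of these 4 ratios reached 2-fold, against 21.4% of all genes in Gwiazda, 22.4% in Oberon, 17.5% in Tajfun and 22.3% in Owacja. Tajfun on day 10 still had 2.70 times its day 0 mean, and Oberon 1.73 times.

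Set cultivar against cultivar, the gene was 1.47-fold higher in Tajfun than in Owacja on day 0 (1695 against 1153 reads), 4.99-fold higher on day 6 (6988 against 1402 reads) and 4.39-fold higher on day 10 (5412 against 1232 reads). The share of genes 2-fold or more apart in those tables was 7.87%, 7.90% and 17.5%. These are the comparisons that chose it. In the other pair it was 1.20-fold higher in Gwiazda than in Oberon on day 0 (767 against 640 reads). On day 6 it was 3.46-fold lower in Gwiazda (581 against 2010 reads), where 296 of 13290 genes had a lower ratio, and on day 10 it was 1.52-fold lower (734 against 1113 reads). The shares of genes apart were 7.59%, 12.3% and 8.98%. The gene was thus 2-fold or more apart in 3 of 6 comparisons of cultivars, with the drought-tolerant cultivar higher on 2 days in Tajfun and Owacja and the drought-sensitive cultivar higher on 1 day in Gwiazda and Oberon.

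The change of the cultivar difference from day 0 puts the drought response of the 2 cultivars into 1 value. In Gwiazda over Oberon the log2 ratio of the lipid transfer protein gene went from 0.26 on day 0 to -1.79 on day 6, a change of -2.05, and to -0.60 on day 10, a change of -0.86. Of 12692 genes with a mean of at least 100 reads in both tables, 131 had a lower change by day 6, and of 12485 genes 711 had a lower one by day 10. From the day tables of each cultivar the same 2 changes were -2.07 and -0.91. In Tajfun over Owacja, the pair that chose the gene, the log2 ratio went from 0.56 to 2.32 and 2.13. A median gene moved by -0.02 by day 6 and -0.01 by day 10 in Gwiazda over Oberon.

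**Figure D3:**
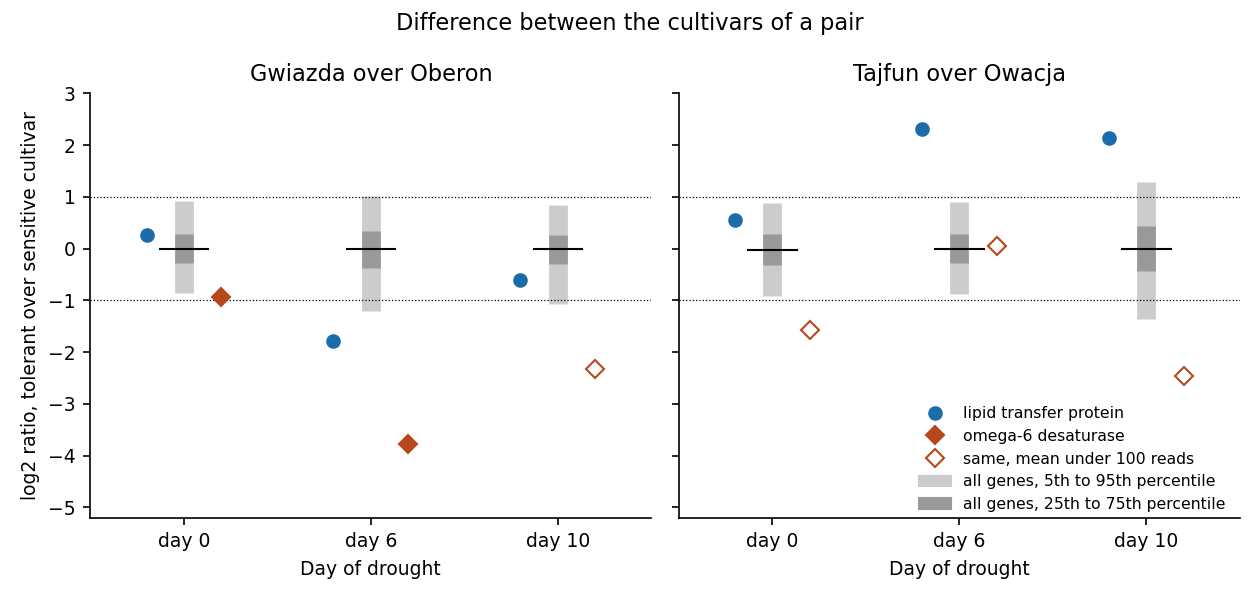
Log2 ratio of the drought-tolerant over the drought-sensitive cultivar on each day, for both genes and, as grey bars, for all genes with a mean of at least 100 reads (dark, 25th to 75th percentile; light, 5th to 95th; black lines, medians; dotted lines, 2-fold). Open symbols are means under 100 reads. On day 6 the lipid transfer protein gene is at -1.79 in Gwiazda over Oberon and at 2.32 in Tajfun over Owacja.

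The other gene is named a microsomal omega-6 desaturase in the paper, which also gives as its Arabidopsis homologue FATTY ACID DESATURASE 7. In Arabidopsis that name belongs to a desaturase of the plastid that makes the omega-3 double bond, whereas microsomal desaturases lie in the endoplasmic reticulum. The tables hold identifiers only and do not decide between the 2 names. Its PCR primers are shown for the same reason as those above.
forward primer of the omega-6 desaturase gene: acaaaccaaaatgggaggtg
reverse primer of the omega-6 desaturase gene: tttgaaggggcgctacatac
Each has 20 bases, and G or C make up 45% of the forward and 50% of the reverse primer.

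On day 0 the mean of the desaturase gene was 310 to 323 normalized reads in Gwiazda and 575 to 593 in Oberon, against 23.2 to 26.9 in Tajfun and 68.4 to 75.6 in Owacja. The drought-sensitive cultivar of each pair thus had the higher mean before drought. In Gwiazda and Oberon, the pair that chose the gene, the study's selection required this difference to be not significant. On day 6 the means were 54.6 to 56.2 in Gwiazda, 738 to 756 in Oberon, 87.1 to 96.6 in Tajfun and 80.5 to 93.5 in Owacja. On day 10 they were 20.5 to 21.0 in Gwiazda, 99.996 to 104 in Oberon, 8.92 to 10.2 in Tajfun and 44.8 to 52.2 in Owacja. In all 4 cultivars the lowest of the 3 days was day 10.

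Oberon on days 6 and 0 held the first places of the 12 groups, followed by Gwiazda on day 0 and Oberon on day 10. The last 3 places were those of Tajfun on day 0, Gwiazda on day 10 and Tajfun on day 10. Of neighbours in this order, only Tajfun and Owacja on day 6 overlapped in their ranges over the tables. The gene had a mean of at least 100 reads over both groups in 7 of the 18 tables, while the lipid transfer protein gene did in all 18. None of the tables of Tajfun and Owacja was among the 7. There its position is given among genes with a mean of at least 10 reads, and a few reads more or less would move its ratios. The shares of genes 2-fold or more apart keep the minimum of 100 reads throughout, so they leave this gene out in all but the 7 tables.

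In the pair that chose it, the desaturase gene was 5.57-fold lower in Gwiazda on day 6 than on day 0 (56.2 against 313 reads, log2 ratio -2.48) and 15.4-fold lower on day 10 (21.0 against 323 reads, log2 ratio -3.95). In Oberon it was 1.28-fold higher on day 6 (738 against 575 reads, log2 ratio 0.36) and 5.76-fold lower on day 10 (99.996 against 575 reads, log2 ratio -2.52). Gwiazda was thus low on both drought days and Oberon only on the later one. From day 6 to day 10 it was 2.70-fold lower in Gwiazda (20.5 against 55.5 reads) and 7.43-fold lower in Oberon, where 83 of 13522 genes had a lower ratio. The Gwiazda ratio has a mean under 100 reads, and with 10 reads added its log2 value went from -1.43 to -1.10. Of all genes, 21.4% were 2-fold or more apart in Gwiazda and 22.4% in Oberon.

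Gwiazda had 1.91-fold less than Oberon on day 0 (310 against 593 reads, log2 ratio -0.94), 13.7-fold less on day 6 (54.6 against 748 reads, log2 ratio -3.77) and 4.98-fold less on day 10 (20.9 against 104 reads, log2 ratio -2.32). Of all genes, 7.59% were 2-fold or more apart on day 0, 12.3% on day 6 and 8.98% on day 10. The 1.91-fold difference of day 0 passes 2-fold when ratios are centred on the genes taken as stable, with a log2 ratio of -1.03. The difference on day 10 was thus smaller than on day 6, as Oberon by then had also come down.

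In Tajfun, of the pair that did not choose it, the desaturase gene was 3.23-fold higher on day 6 than on day 0 (87.1 against 26.9 reads, log2 ratio 1.69). Of 19091 genes with a mean of at least 10 reads, 1180 had a higher ratio. With 10 reads added to both means the log2 ratio of day 6 was 1.39. On day 10 the gene was 2.97-fold lower than on day 0 (8.92 against 26.5 reads, log2 ratio -1.57), and adding 10 reads to both means brought this to -0.95, under 2-fold. From day 6 to day 10 it was 9.28-fold lower (10.2 against 94.2 reads, log2 ratio -3.21), with 221 of 18957 genes of at least 10 reads lower. Of genes with a mean of at least 100 reads, 17.5% were 2-fold or more apart. With 10 reads added to both means this log2 ratio was -2.37. In Owacja the means were 80.5 against 75.6 reads on day 6 and 44.8 against 70.6 reads on day 10, with log2 ratios of 0.09 and -0.66, and day 10 was 1.64-fold lower than day 6. The day 6 level in Tajfun was thus above day 0 in the drought-tolerant cultivar, whereas in Gwiazda, the drought-tolerant cultivar of the other pair, it was below.

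Over the 8 comparisons with day 0, the desaturase gene was at least 2-fold lower in 4 (both days in Gwiazda, day 10 in Oberon and in Tajfun) and at least 2-fold higher in 1, Tajfun on day 6. Without the tables of Oberon day 10 it was lower in 3 of 7. Of the comparisons counted, only those of Tajfun lie outside the pair that chose the gene, and in neither did its mean reach 100 reads. With 10 reads added the log2 ratio of Tajfun on day 10 was -0.95, under 2-fold. Over the same 8 tables, 12.8% to 21.5% of all genes were at least 2-fold lower and 9.15% to 18.4% at least 2-fold higher, and in Tajfun on day 6 the share higher was 11.2%.

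Between Tajfun and Owacja the desaturase gene was 2.95-fold lower in Tajfun on day 0 (23.2 against 68.4 reads, log2 ratio -1.56) and 5.48-fold lower on day 10 (9.27 against 50.8 reads, log2 ratio -2.45). With 10 reads added the log2 ratio of day 10 was -1.66. Of all genes, 7.87% were 2-fold or more apart on day 0, 7.90% on day 6 and 17.5% on day 10. On day 6 the 2 cultivars had 96.6 and 93.5 reads, a log2 ratio of 0.05, whose sign turns to -0.01 when centred on the genes taken as stable. The change of this log2 ratio from day 0 was 1.61 by day 6, with 487 of 17793 genes of at least 10 reads higher, and -0.89 by day 10, with 1939 of 17364 genes lower. From the day tables of each cultivar the 2 changes were 1.603 and -0.92. In Gwiazda over Oberon, the pair that chose the gene, the changes were -2.84 and -1.38. Over the 6 comparisons of cultivars the gene was 2-fold or more apart in 4, each time lower in the drought-tolerant cultivar, and in 3 of the 5 without Oberon day 10. Of all genes, 7.59% to 17.5% were that far apart in either direction over the same comparisons. Of these 4 comparisons, 2 lie in the pair that chose the gene, and only that of Gwiazda and Oberon on day 6 has a mean of at least 100 reads over both groups.

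Side by side, the 2 genes differed in the cultivars that stood apart. On day 6 both were about 3.2-fold above day 0 in Tajfun, with log2 ratios of 1.68 for the lipid transfer protein gene and 1.69 for the desaturase gene. With 10 reads added these log2 ratios in Tajfun were 1.67 and 1.39, the latter from 87.1 against 26.9 reads. On day 10 both were below their day 6 means there, and they lay on opposite sides of day 0, at 1.43 and -1.57. The value of -1.57 rests on 8.92 against 26.5 reads and was -0.95 with 10 reads added. In Oberon on day 10 the log2 ratios were 0.79 and -2.52, and in Gwiazda -0.12 and -3.95.

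Genes with the same combination of cultivars were counted, after the values were seen and without a test. On day 6, 41 of 12582 genes with a mean of at least 100 reads in the 4 tables (0.326%) were, like the lipid transfer protein gene, at least 2-fold higher than on day 0 in Oberon and Tajfun and within 2-fold in Gwiazda and Owacja. On day 10, 227 of 12623 genes (1.80%) were at least 2-fold higher in Tajfun and within 2-fold in the other 3. For the desaturase gene, 56 of 17057 genes with a mean of at least 10 reads (0.328%) were at least 2-fold lower in Gwiazda and higher in Tajfun on day 6 and within 2-fold in Oberon and Owacja. On day 10, 284 of 17038 genes (1.67%) were at least 2-fold lower in Gwiazda, Oberon and Tajfun and within 2-fold in Owacja. The genes in each count were picked to resemble a gene already seen, so the counts describe how common a pattern was and no more.

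The 2 genes belong to 5 that the text of the paper sets under fatty acid synthesis and the transport of lipids or across membranes. The other 3 were chosen by the study on these libraries too, in Tajfun and Owacja, so that 4 of the 5 genes come from that pair. The carbohydrate transporter gene PGSC0003DMG400019233, the homologue of an Arabidopsis membrane carrier, was higher than on day 0 by 3.56-fold in Oberon (211 against 59.3 reads) and by 4.16-fold in Tajfun on day 6 (856 against 206 reads). On day 6 it was 1.90-fold higher in Gwiazda and 1.40-fold higher in Owacja. Like the lipid transfer protein gene, it passed 2-fold on day 6 in Oberon and Tajfun and not in Gwiazda or Owacja. In Gwiazda on day 6 the directions differed, as the lipid transfer protein gene was 1.30-fold lower. On day 10 the carbohydrate transporter gene was 4.54-fold higher in Tajfun and close to day 0 in Oberon, with 52.2 against 59.4 reads.

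The homologue of FATTY ACID DESATURASE 4, PGSC0003DMG400022225, which in Arabidopsis acts on phosphatidylglycerol of the plastid, was lower on both drought days in all 4 cultivars. Tajfun had the lowest ratios, with 509 against 3227 reads on day 6 and 409 against 3173 reads on day 10, 6.34-fold and 7.76-fold lower. Elsewhere it was 1.95-fold lower on day 6 in Gwiazda, 2.36-fold in Oberon and 2.28-fold in Owacja. On day 10 in Oberon it was just short of 2-fold lower, with 1454 against 2908 reads. The 2 desaturase genes therefore moved in opposite directions in Tajfun on day 6 and in the same direction on day 10. The nitrate transporter gene PGSC0003DMG400006913 was 3.71-fold lower in Tajfun on day 6 and 3.37-fold lower on day 10, and 3.13-fold lower in Gwiazda on day 10. In Owacja it was 1.35-fold higher on day 6 and 1.67-fold higher on day 10.

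**Figure D4:**
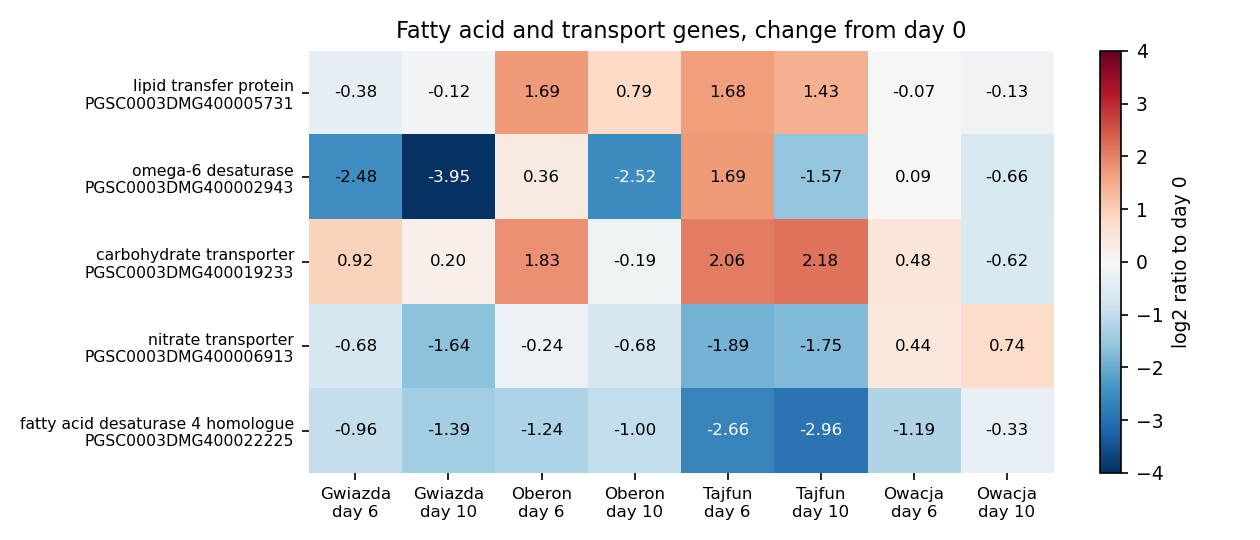
Log2 ratio to day 0 of the same cultivar for the 5 genes set under fatty acid synthesis and transport, each cell with its value (blue lower, red higher). In Tajfun on day 6, 3 genes are at 1.68, 1.69 and 2.06 and the other 2 at -1.89 and -2.66.

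Counted over the 5 genes, 3 were at least 2-fold higher and 2 at least 2-fold lower in Tajfun on day 6, against 11.2% and 16.0% of all genes. On day 10 in Tajfun 2 were higher and 3 lower, against 16.7% and 21.0%. Of the 5, 4 were chosen by their values in Tajfun and Owacja, and the desaturase gene by its values in Gwiazda and Oberon. Nothing is therefore read from any count or median of the 5 given here. The desaturase gene is the 1 counted lower below in Gwiazda on day 6 and in Oberon on day 10. In Oberon 2 were higher and 1 lower on day 6, against 9.86% and 12.8% of all genes, and 0 were higher and 1 lower on day 10, against 16.6% and 16.7%. In Gwiazda 1 was lower on day 6, against 13.8% of all genes, and 3 on day 10, against 19.8%, and none was higher on either day, against 9.15% and 16.3%. In Owacja 1 was lower on day 6, against 16.9%, and none passed 2-fold in either direction on day 10, against 18.4% higher and 21.5% lower. The median log2 ratio of the 5 was 1.68 in Tajfun on day 6 and -1.57 on day 10, against 0.05 on both days for all genes. The 1.68 is the value of the lipid transfer protein gene. The -1.57 is that of the desaturase gene, from 8.92 against 26.5 reads. Only the desaturase gene changed sign there between the 2 days. In Gwiazda the median of the 5 was -0.68 and -1.39, against 0.01 for all genes on both days. In Oberon it was 0.36 and -0.68, against 0.04 and 0.06, and in Owacja 0.09 and -0.33, against 0.02 and 0.03.

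Genes with a like profile were sought by Pearson's r over the 18 log2 ratios, with 1 read added to each mean, among 11347 genes that had a mean of at least 100 reads in every table. The 18 ratios share groups, so the r is a description without a p. Closest to the lipid transfer protein gene was PGSC0003DMG400015367 (r = 0.94, Spearman's rho = 0.84), which in Oberon on day 6 had 984 against 500.04 reads on day 0 and in Tajfun 1063 against 544. It differed from the lipid transfer protein gene on day 0, where it was lower in Gwiazda than in Oberon, with 377 against 516 reads. Next was PGSC0003DMG400024449 (r = 0.94, rho = 0.87), whose ratios had a smaller range, with a log2 ratio of 0.50 in Oberon and 0.41 in Tajfun on day 6.

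Closest to the desaturase gene was PGSC0003DMG400022297 (r = 0.94, rho = 0.95), with a log2 ratio of -0.32 in Gwiazda and 0.21 in Tajfun on day 6. Its ratios had a smaller range, at -0.47 against -3.89 for the desaturase gene in Gwiazda on day 10. Between cultivars on day 0 it was at 0.03 in both pairs, against -0.93 in Gwiazda over Oberon and -1.52 in Tajfun over Owacja. The next was PGSC0003DMG400011909 (r = 0.91, rho = 0.91), at 1287 against 1780 reads in Gwiazda and 1774 against 1005 reads in Tajfun on day 6. These 4 genes are given by identifier only. PGSC0003DMG400015367 was in place 7 by rho and PGSC0003DMG400011909 in place 4, and the other 2 were in places 2 and 1.

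**Figure D5:**
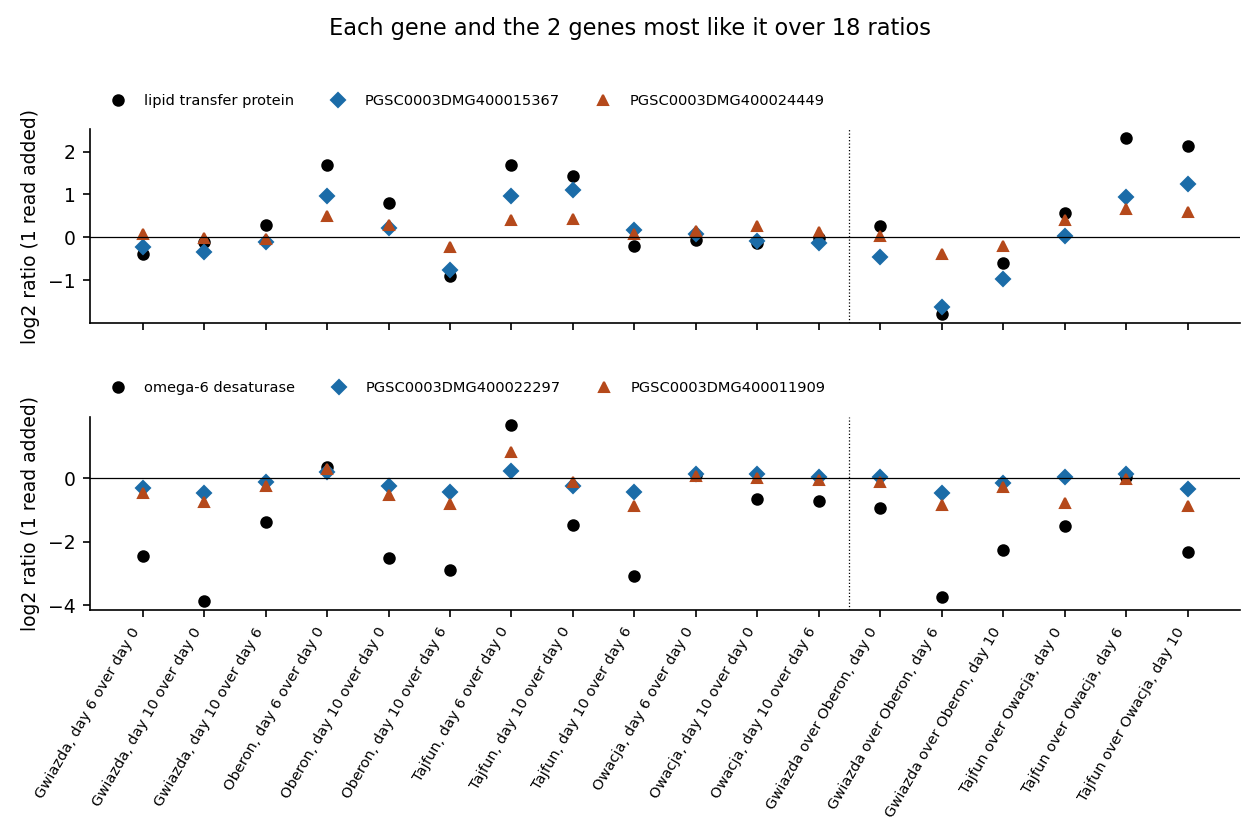
Log2 ratios with 1 read added, in the 18 tables, of each gene and of the 2 genes most like it. The 12 comparisons of days are to the left of the dotted line and the 6 of cultivars to its right. The lipid transfer protein gene has wider swings than its nearest genes, as in Tajfun over Owacja on day 6 (2.32 against 0.94 and 0.66).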

How the data were processed

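Leaf RNA was sequenced as strand-specific paired-end libraries, and groups were taken from the sample labels. According to the paper's methods and the submitters' processing notes, the authors mapped reads to the PGSC potato pseudomolecules with TopHat2, estimated reads per transcript with Flux Capacitor, summed isoforms per gene and ran DESeq on 1 pair of groups at a time. The deposited signal columns are group means of normalized reads, each table normalized by the authors on its own. The other deposited columns hold the authors' own fold changes and tests and were not used. How reads that map to several genes of the lipid transfer protein family were shared out was not stated, so the level of this gene is uncertain to that extent. By the paper's summary of reads, a Gwiazda library of day 6 had the largest share of reads at several loci. Every Oberon library also had a smaller share of mapped reads than any Gwiazda library. Whether either moved the means of the genes was not tested.

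Ratios and log2 ratios were computed within a table with Python 3, pandas and numpy, without a pseudocount except for the profiles. The column of each group lay closest to the same group in other tables in all 18 tables. The shares of genes 2-fold apart used a minimum mean of 100 reads. The functions were tested on simulated data with 200 genes changed. Depth per library is listed in the paper but not in these tables, and no counting interval is given. The 2 genes, the list of 5, RAB18 and the 7 stable genes were chosen with earlier results of these data known, and the lists and stable genes come from the study itself. The genes named were fixed as these and the 2 most alike to each member. The 7 genes taken as stable are those whose primers the study names as used for all varieties. They are fewer than the genes that the paper reports as stably expressed. Sequences were read from the study's primer table. Of 25289 identifiers, 0 matched the annotation of assembly SolTub_3.0, so no coordinates are given.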

Additional observations from a re-analysis of the deposited data

How the results depend on the processing

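The counts of comparisons 2-fold or more apart and the 4 changes of a cultivar difference in the pair that did not choose a gene were recomputed with means divided by the column total, with log2 ratios centred on the median of all genes or on the 7 stable genes, with 1 or 10 reads added, and from other tables. Each of the 4 changes kept its sign under every one of these that was run. The change of Tajfun over Owacja for the desaturase gene ran from 1.28 with 10 reads added to 1.61 by day 6, and by day 10 it was -0.42 with 10 reads added against -0.89. Over the 36 single log2 ratios, the largest shift was 0.39 with means divided by the column total, 0.16 on the stable genes, 0.06 on the median of all genes, 0.12 and 0.84 with 1 and 10 reads added, and 0.05 from other tables. Among them 2 ratios crossed the 2-fold mark under 1 setting each and 3 changed sign, 1 of these under 2 settings, all given in the text above. The desaturase gene was thus at least 2-fold lower than on day 0 in 3 comparisons with 10 reads added and apart between cultivars in 5 on the stable genes, and no other count moved with scaling, pseudocount or source table. By Spearman's rho 1 of the 2 nearest genes of each member remained among the first 2. Leaving out the tables of Oberon day 10 was chosen after seeing the data. No paired analysis was possible because the tables hold group means only, and leaving out a replicate was not run for the same reason.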
